A study of Mus musculus with 2 samples.

Results

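The genes described here are 39 type I interferon-stimulated genes, a list of genes that mouse cells are known to switch on when they sense type I interferon. The rule that picks them goes by gene name and sets no threshold on a value, though the list was drawn up with earlier results of these arrays known. Probes were assigned to them through the RefSeq accession that the array files give for each probe, and each gene was read from its brightest probe. Of the 39 genes, 37 had such a probe, out of 32448 genes or unnamed transcripts on the array, of which 20656 had a symbol. Mx1 and Mx2, which encode dynamin-like antiviral GTPases, were not matched to a probe and are not analysed here.

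The study measured RNA from BMDMs (bone marrow-derived macrophages), which are macrophages grown from mouse marrow cells in culture with the growth factor M-CSF. One culture condition was untreated and the other was treated for 18 h with IL-4, a cytokine that drives macrophages toward the alternatively activated (M2) state; both are labelled with the same time of 18 h. By the study's methods, the cells of both conditions were grown from male mice aged 8 weeks with the genotype Crif1 f/f, that is with a floxed Crif1 gene, and no Cre is named for the cells on the arrays. The IL-4 dose used for the arrays is not given in the sources used here. Each condition was hybridised to 1 single-colour array, 2 arrays in all, so no difference has a replicate check and no p-value is given.

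Type I interferons bind the receptor IFNAR1/IFNAR2, whose kinases JAK1 and TYK2 activate STAT transcription factors. STAT2 acts together with the DNA-binding factor IRF9 at a DNA element called the interferon-stimulated response element (ISRE) in the promoters of many such genes. Their products bind, cut or edit viral RNA, block viral entry and budding, or raise and restrain the interferon signal itself, and macrophages hold a low level of many of them at rest.

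The ISRE core was searched as the letters GAAANNGAA on both strands of RefSeq promoter windows of 250 bases before to 50 bases after the gene start, on build GRCm38.p6. Of the 27 genes with a window in the table, 16 (59.3%) held at least 1 match, against 9.76% of 27025 genes with a window and 8.56% of 32851 windows. Overlapping matches were counted separately. The 8 stretches below belong to genes whose values differ widely on these arrays, and are printed 5′ to 3′ on the strand of the gene with matched letters on either strand in capitals.
Ifit1, chr19:34640760-34640833, plus strand: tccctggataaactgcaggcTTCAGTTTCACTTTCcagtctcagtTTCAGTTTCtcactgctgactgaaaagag
Ifit3, chr19:34583354-34583455, plus strand: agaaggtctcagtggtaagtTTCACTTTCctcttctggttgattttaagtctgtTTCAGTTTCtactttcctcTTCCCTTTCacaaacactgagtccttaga
Isg15, chr4:156200856-156200916, minus strand: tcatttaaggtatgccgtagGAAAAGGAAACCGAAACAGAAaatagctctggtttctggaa
Oas1a, chr5:120907511-120907565, minus strand: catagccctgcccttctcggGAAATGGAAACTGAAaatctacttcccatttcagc
Bst2, chr8:71537568-71537622, minus strand: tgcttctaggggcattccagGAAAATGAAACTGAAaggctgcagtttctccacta
Rsad2, chr12:26456543-26456591, minus strand: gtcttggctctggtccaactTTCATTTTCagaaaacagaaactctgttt
Trim25, chr11:88999374-88999422, plus strand: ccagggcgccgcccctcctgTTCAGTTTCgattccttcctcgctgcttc
Ifi44, chr3:151749885-151749933, minus strand: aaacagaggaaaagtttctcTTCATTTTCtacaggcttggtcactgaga

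Isg15, Ifit1 and Ifit3 had 3 matches each, Oas1a and Bst2 had 2 each, and Rsad2, Trim25 and Ifi44 had 1 each. Relative to the gene start, the first match began at position -78 in Isg15, -109 in Ifit1 and -3 in Ifi44. A match is a stretch of letters and not a measured binding site. The windows of Ifit2, Isg20, Ifi35, Cmpk2, Herc6, Dtx3l, Oasl1, Oasl2, Parp12, Sp100 and Xaf1 held no match, which says only that these letters are not in them. No window was listed for Usp18, Zbp1, Tor3a, Parp9, Parp14, Dhx58, Rtp4, Oas2, Ifi204, Ifi27l2a, Mx1 and Mx2. The letters TTCNNNGAA, the gamma-activated site bound by STAT dimers, were found for 8 of the 27 genes (29.6%), against 9.55% of all genes with a window.

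After IL-4 treatment, 4 of the 37 genes were at least 2-fold higher, namely Usp18, Zbp1, Tor3a and Ifit1, and 1, Ifi44, was at least 2-fold lower. The remaining 32 genes differed by less than 2-fold. Differences are log2 values of the IL-4 array minus the untreated array, after each array's 75th percentile was subtracted. The share of genes at least 2-fold higher was 10.8%, against 2.86% of all 19743 genes that stood well above background on 1 or both arrays, and it rests on 4 genes with no test. The share at least 2-fold lower was 2.7%, against 4.47% of all genes. Ifit1 and Ifi44 entered these counts only through the array where they were high. Among genes of the list read on both arrays the counts were 3 higher and 0 lower. Of all 17242 genes read on both arrays, 363 were higher and 270 lower. Nothing is read from the shares. At 1.5-fold, Isg15 joined the higher genes, giving 5 (13.5%, against 6.11% of all genes), and Ifit2 joined the lower ones, giving 2 (5.41%, against 11% of all genes).

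Well above background is the scanner software's own call for a spot. It was met on both arrays by 35 of the 37 genes, by Ifit1 on the IL-4 array alone and by Ifi44 on the untreated array alone. The median difference of the 35 genes was 0.07, with quartiles of -0.16 and 0.22 and a range of -0.67 to 1.45. Over all 17242 genes well above background on both arrays the median was -0.01, with quartiles of -0.19 and 0.14. Of the 35 genes, 23 (65.7%) lay above 0, as did 47.4% of all genes. These counts depend on how the arrays were scaled: 18 of the 35 genes lay above 0 when the percentile was taken over the probes read on both arrays, and 32 when the arrays were scaled on spike-in controls, with 37.8% and 82.4% of all genes above 0. A difference under 0.5 in size was found for 28 of the 35 genes (80%), against 86.4% of all genes.

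**Figure D1:**
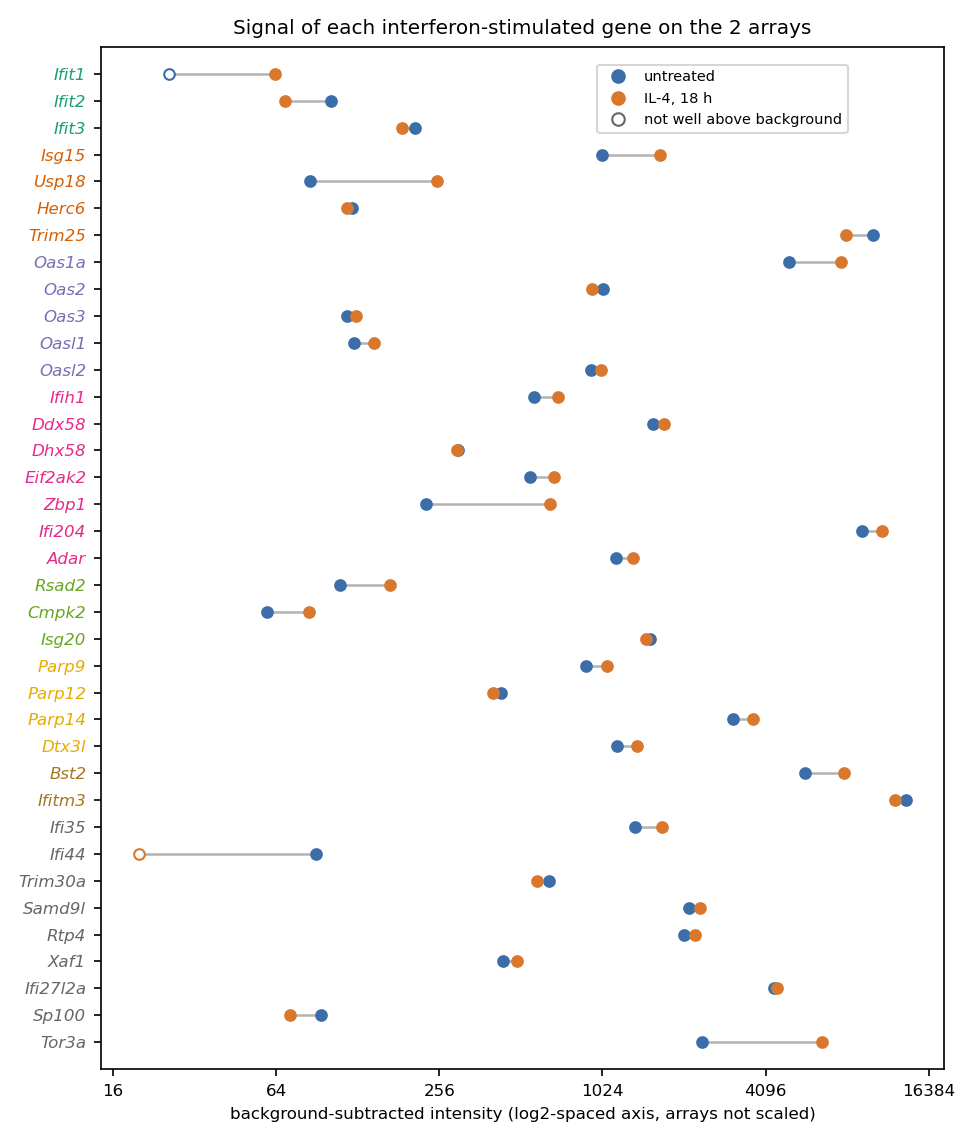
Background-subtracted intensity of each of the 37 genes on the untreated array (blue) and the IL-4 array (orange), 1 array per condition, on a log2-spaced axis with no scaling between arrays; open circles are not well above background. The widest gaps are those of Ifi44 (89.8 against 19.96), Usp18 (85.2 against 250), Zbp1 (229 against 658) and Tor3a (2395 against 6603), while most pairs of points lie close together.

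The only error that these arrays give is the scatter between spots of the same probe, taken as the SD of the log2 difference over spots of 259 probes printed in many spots, at a like signal. For the 35 genes this spot SD ran from 0.045 to 0.20, larger for dimmer probes, and 5 of the 35 differences were smaller than it. It is borrowed from other probes, since only Ifitm3 in the list was printed in 10 spots. Over its own spots Ifitm3 had an SD of 0.11, above the 0.045 assigned at its signal. The spot SD given for the other genes may therefore be too small. The spot SD does not cover the spread between cultures or labelling reactions, which could not be measured.

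The IFIT genes encode proteins that bind viral RNA with foreign 5′ ends and hold it off from translation. Ifit1 read 25.7 on the untreated array, not well above background, and 63.3 on the IL-4 array, so it was at least 2.02-fold higher (a log2 difference of at least 1.02). That bound compares the IL-4 signal with the lowest signal that was well above background; the gene entered only through the array where it was high, and its difference was 0.96 with the percentile taken over probes read on both arrays and 0.16 under normexp, another background correction. Ifit2 read lower after IL-4, at 102 untreated and 69.0 after IL-4 (log2 difference -0.67, spot SD 0.17). Ifit3 read 209 and 186, a difference of -0.26 with a spot SD of 0.10. Both were under 2-fold, and the difference of Ifit3 turned to 0.02 under spike-in scaling.

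Among ISG15 and its enzymes, Usp18 had the largest difference of all 35 genes with the scaling used here. Zbp1 (1.42) and Tor3a (1.36) lay close to it, and under normexp they stood above it, at 1.13 and 1.41. Usp18 removes the ubiquitin-like protein ISG15 from its targets and also blocks signalling at IFNAR2. Its intensity was 85.2 untreated and 250 after IL-4, a 2.74-fold rise (log2 difference 1.45, spot SD 0.12, but 0.87 and so under 2-fold with normexp). Isg15 itself, the modifier, read 1024 and 1674, which is 1.53-fold higher (0.61, spot SD 0.058). The ligases had values below 0. Herc6, the main ISG15 ligase in mice, read 122 and 117 (-0.17, turning to 0.12 under spike-in scaling), and Trim25, a ubiquitin ligase that acts on the RNA sensor RIG-I, read 10174 and 8136 (-0.42, spot SD 0.052, below 0 in all settings).

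The OAS genes encode enzymes that make 2′-5′-linked oligoadenylates on double-stranded RNA and so activate RNase L, except for the OAS-like genes, of which Oasl1 lacks this activity. Oas1a stood apart from the other 4, at 5005 untreated and 7809 after IL-4, or 1.46-fold higher (0.54, spot SD 0.049). Oas2 read 1033 and 940 (-0.23) and Oas3 read 117 and 126 (0.00). Oasl1 read 124 and 147 (0.15), and Oasl2 read 929 and 1011 (0.02). None of the 5 reached 1.5-fold, the differences of Oas3 and Oasl2 were smaller than their spot SDs of 0.13 and 0.059, and those of Oas2, Oas3 and Oasl2 changed sign under other scalings.

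Of the 7 sensors and editors of nucleic acid, 6 lay above 0 and 1 reached 2-fold. Zbp1, which senses Z-form nucleic acid and can start necroptosis, rose 2.68-fold from 229 to 658 (log2 difference 1.42, spot SD 0.072). A dimmer probe of Zbp1 gave 0.18, and the median over both probes, 0.80, was under 2-fold. The RIG-I-like receptors stayed near 0: Ddx58 (RIG-I) read 1572 and 1732 (0.04), Ifih1 (MDA5) read 570.1 and 704 (0.20), and Dhx58 (LGP2) read 301 and 299 (-0.11). Eif2ak2, the kinase PKR that halts translation on double-stranded RNA, read 551 and 677 (0.20). Adar, which edits adenosine to inosine in RNA, read 1149 and 1327 (0.11). Ifi204, a DNA sensor of the interferon-inducible p200 family, stood far above background on both arrays at 9304 and 10982 (0.14). Apart from Zbp1 these differences spanned -0.11 to 0.20, and under other scalings those of Ddx58 and Dhx58 changed sign.

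**Figure D2:**
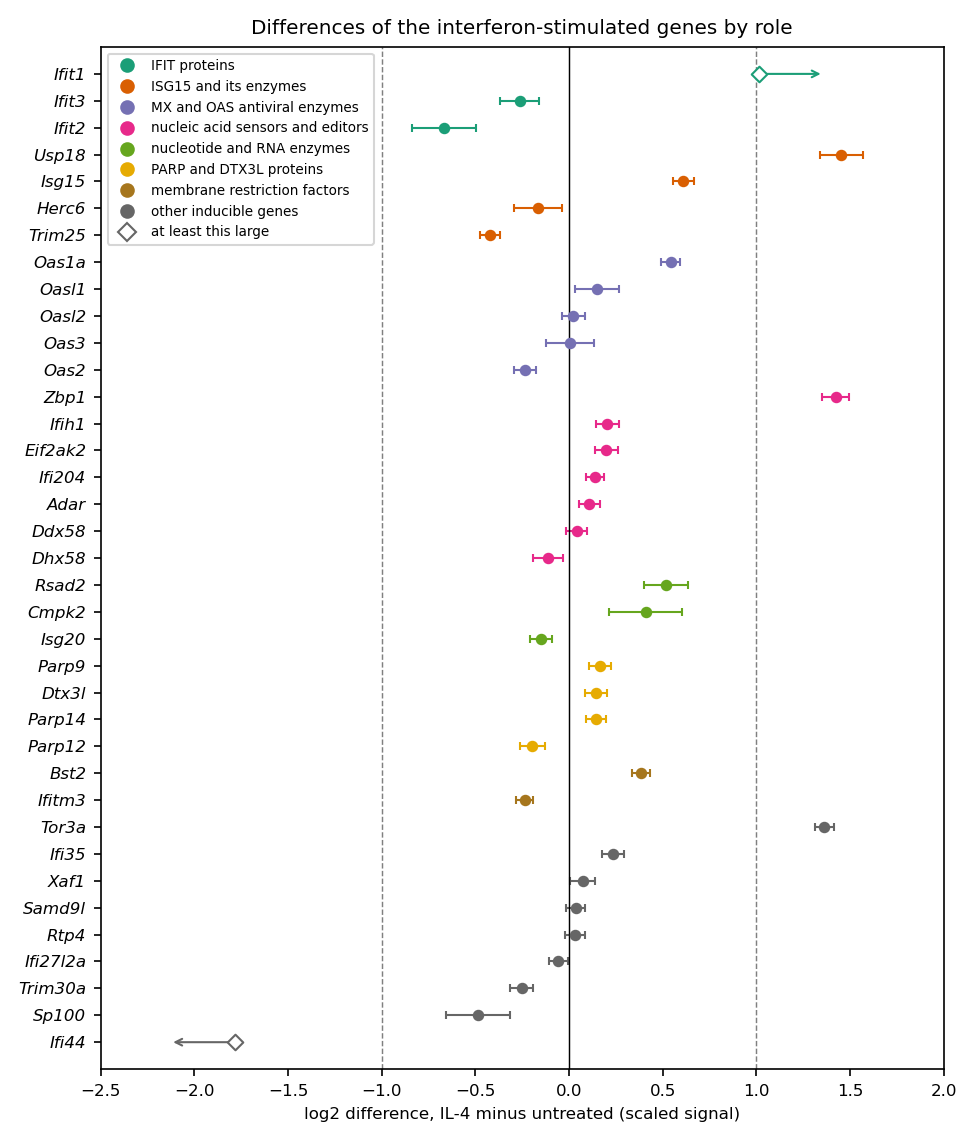
Log2 difference of the IL-4 array minus the untreated array for each of the 37 genes, grouped by role; bars are the spot SD, dashed lines mark 2-fold, and diamonds with arrows are bounds for genes well above background on 1 array only. Usp18 (1.45), Zbp1 (1.42), Tor3a (1.36) and the bound of Ifit1 (1.02) lie past the line on the right and the bound of Ifi44 (-1.79) past that on the left, and the other 32 genes lie between the lines.

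The 3 enzymes acting on nucleotides and RNA held a pair of neighbouring genes with like values. Rsad2 (viperin), which makes a chain-terminating form of CTP, read 110 and 168, or 1.43-fold higher (0.52, spot SD 0.12). Cmpk2, a mitochondrial kinase that supplies CTP, lies next to it in the genome and read 59.4 and 84.6 (0.41, spot SD 0.20). Isg20, an RNA exonuclease, read 1540 and 1486 (-0.15, turning to 0.14 under spike-in scaling). The signal of Cmpk2 lay close to background, and its difference shrank to 0.04 under normexp.

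The neighbouring genes Parp14, Dtx3l and Parp9 had nearly the same difference. Other neighbours in the list lay further apart: Ifit2 and Ifit3 (-0.67 and -0.26), Oas2 and Oas3 (-0.23 and 0.00), and Oasl2 and Oasl1 (0.02 and 0.15). No agreement by position is read from these values. Parp9 and its partner Dtx3l, an E3 ubiquitin ligase, work as a pair, and Parp14 is a mono-ADP-ribosyltransferase. Parp9 read 887 and 1064 (0.16), Dtx3l read 1163 and 1377 (0.14), and Parp14 read 3110 and 3681 (0.14). Parp12, another ADP-ribosyltransferase, read 431 and 403 (-0.20, turning to 0.09 under spike-in scaling). All 4 were under 1.5-fold, and the 3 neighbours were above 0 in each of the 6 other scalings, but Dtx3l turned to -0.14 when its probes were summarised by their median.

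The 2 restriction factors at membranes stood far above background and lay on opposite sides of 0. Bst2 (tetherin), which holds budding virus at the cell surface, read 5731 and 8002, or 1.30-fold higher (0.38, spot SD 0.049). Ifitm3, which blocks fusion of entering virus, read 13525 and 12303 (-0.24). Its probe was printed in 10 spots, all 10 lower on the IL-4 array, with a mean of -0.24 ± 0.11 (SD over spots) and a range of -0.39 to -0.01. Those spots share 1 culture per condition, and under spike-in scaling the difference was 0.05.

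Of the other inducible genes, Tor3a rose and Ifi44 fell, and the other 7 were under 1.5-fold. Tor3a, an AAA+ ATPase of the torsin family in the endoplasmic reticulum, rose 2.57-fold from 2395 to 6603 (log2 difference 1.36, spot SD 0.053). Ifi44, a cytoplasmic protein induced by interferon, read 89.8 untreated and 19.96 after IL-4, where it was not well above background, which with the scaling used here gives a fold of at least 3.45 (a log2 difference of -1.79 or beyond). The size depends on the processing, at -1.48 with quantile normalization and -0.96 under normexp, and a spike-in control probe near background itself read -2.52 between these arrays; the part of low signal in the value of Ifi44 was not tested. Both bounds in this report belong to dim spots, for which the scanner software's own error estimate was 34.4% and 16.3% of the signal for Ifit1 and 12.3% and 32.6% for Ifi44, untreated and IL-4. For 24 of the 37 genes, Usp18, Ifit1 and Ifi44 among them, only 1 probe was available.

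The remaining 7 genes were Ifi35, Xaf1, Samd9l, Rtp4, Ifi27l2a, Trim30a and Sp100. Ifi35 read 1346 and 1695 (0.23), and Sp100, a nuclear body protein, read 93.7 and 71.7 (-0.49, spot SD 0.17). Trim30a, which restrains NF-kappaB signalling, read 652 and 587 (-0.25). Xaf1, which favours apoptosis, read 440 and 495 (0.07). Samd9l (2130 and 2337), the chaperone Rtp4 (2051 and 2245) and the mitochondrial protein Ifi27l2a (4386 and 4518) had differences of 0.03, 0.03 and -0.06, all near 0 and of either sign under other scalings. Oas1a, Ifi204, Ifit3, Trim30a and Ifi27l2a belong to families with close copies, and signal from a near-identical copy cannot be told apart here, since probe sequences were not used.

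**Figure D3:**
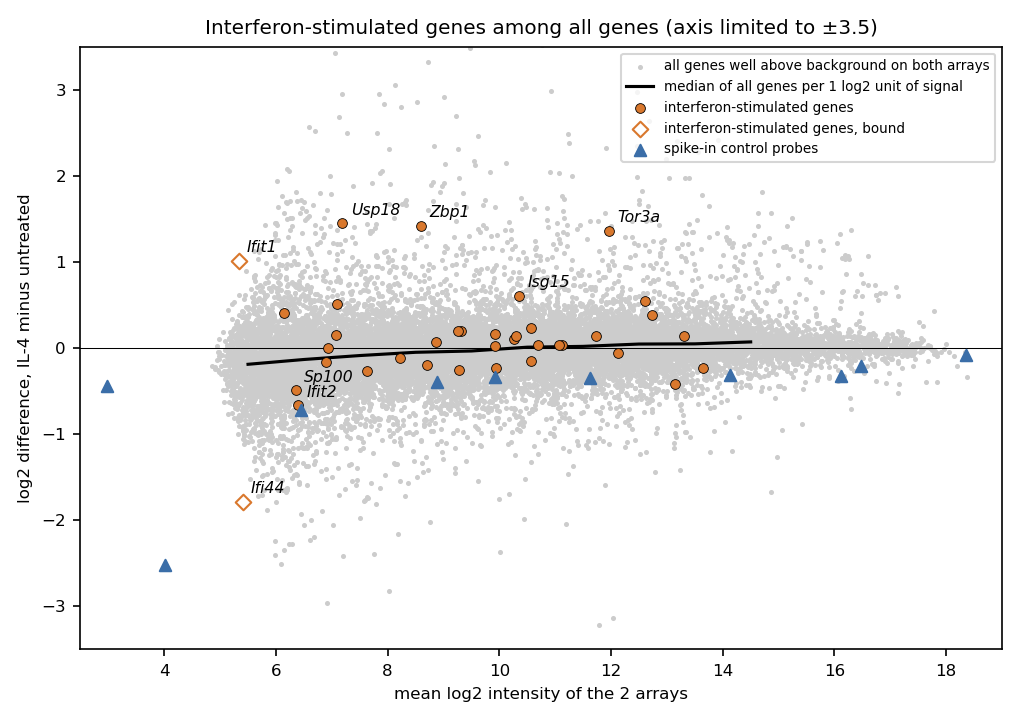
Log2 difference against the mean log2 intensity of both arrays for all genes read on both arrays (grey), the interferon-stimulated genes (orange), spike-in control probes (blue triangles) and the median of all genes per unit of signal (line). The line runs from -0.19 for the dimmest genes to 0.07 for bright ones, and Tor3a, Zbp1 and Usp18 lie above the bulk of genes of like signal; 17 genes lie beyond the axis limit of 3.5.

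Dim genes read lower on the IL-4 array as a class. The median difference was -0.19 over 1256 genes with a mean log2 intensity of 5 to 6, -0.13 between 6 and 7, 0.01 between 10 and 11 and 0.07 between 14 and 15. The spike-in probes, which read control RNA added at labelling, differed by -0.40 to -0.08 over the 7 bright ones, by -0.72 for a dimmer one and by -2.52 for one near background, which passed the software's background call in 59.4% of its 32 spots untreated and in 3.12% of them with IL-4. For Usp18, Zbp1 and Tor3a the medians of genes of like signal were -0.10, -0.05 and 0.03, beside their own differences of 1.45, 1.42 and 1.36. For Ifi44, Ifit2 and Sp100 those medians were -0.19, -0.14 and -0.13, on the same side of 0 as their own values, and the part of signal strength in these values was not tested. The median over genes of Ifit1's signal was -0.20, beside its bound of 1.02, which rests on a dim spot. The part of signal strength in the values of Ifit1, Usp18, Zbp1 and Tor3a was not tested either.

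Where a gene had a second probe well above background on both arrays, the 2 probes often gave different sizes. There were 11 such genes, of which 8 had the same sign from both probes and 3 (Adar, Dtx3l and Herc6) had opposite signs. Zbp1 differed most: the brighter probe read 229 and 658 (1.42), and the dimmer probe read 97.8 and 119 (0.18, spot SD 0.16). For Tor3a the dimmer probe read 202 and 376 (0.80), and for Isg15 it read 66.8 and 83.3 (0.22), both smaller than the value reported. Oas1a gave 0.54 and 0.57, and Cmpk2 gave 0.41 and 0.40. Dtx3l gave 0.14 and -0.42. The median over both probes was 0.80 for Zbp1, under 2-fold, and 1.08 for Tor3a, still past it.

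**Figure D4:**
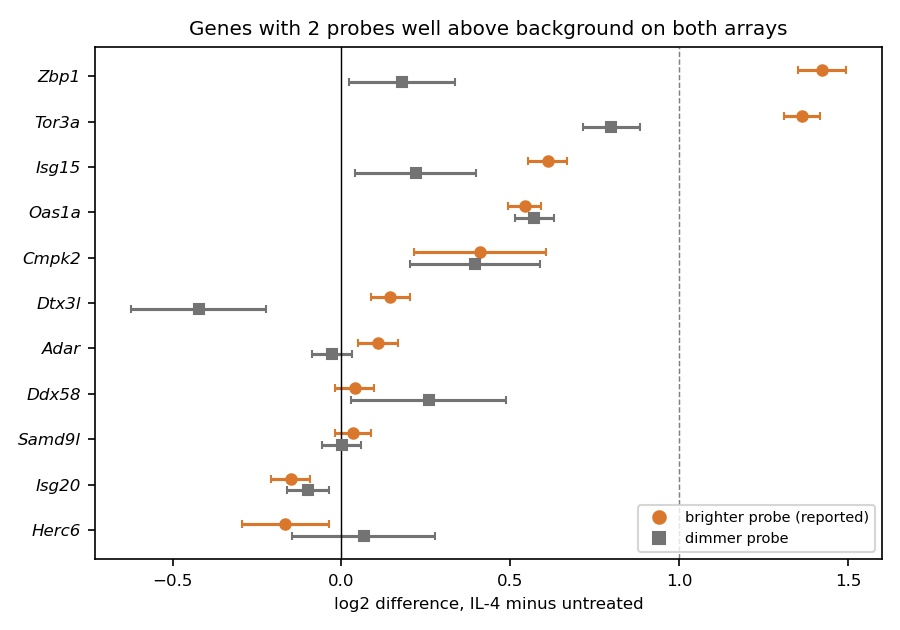
Log2 difference of the IL-4 array minus the untreated array for the 11 genes with 2 probes well above background on both arrays, from the brighter probe (orange circles) and the dimmer probe (grey squares), with the spot SD as bars and 2-fold as the dashed line. The probes of Oas1a (0.54 and 0.57) and Cmpk2 (0.41 and 0.40) lie together, and those of Zbp1 (1.42 and 0.18), Dtx3l (0.14 and -0.42) and Tor3a (1.36 and 0.80) lie apart.

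The differences of genes with and without an ISRE core in the promoter window overlapped. The 14 with a match that were well above background on both arrays had a median difference of 0.07 and a range of -0.42 to 0.61, and 10 of them lay above 0. The 11 without a match had a median of 0.02 and a range of -0.67 to 0.41, and 6 lay above 0. None of these genes differed by 2-fold: Usp18, Zbp1 and Tor3a had no window, and Ifit1 and Ifi44, both with matches, had only bounds of 1.02 and -1.79. The printed stretches were picked from genes whose values differ widely, so their spread was set by that choice and nothing is read from it. Isg15 and Ifit3, with 3 matches each, had differences of 0.61 and -0.26, and that of Ifit3 was 0.02 under spike-in scaling.

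The interferon genes and their signalling chain were described as a list. Ifnb1, Ifna2 and Ifna4, which encode type I interferons, stayed near background on both arrays, with intensities from 5.75 to 34.1. The receptor chains Ifnar1 (3108 and 3342, 0.01) and Ifnar2 (5732 and 5980, -0.04), the kinases Jak1 (0.07) and Tyk2 (-0.25), and Stat2 (0.28), Irf9 (-0.08) and Irf3 (0.16) were all read on both arrays and differed by less than 1.5-fold. Of the 10 genes read on both arrays, 2 rose at least 2-fold and 0 fell. Over all 17242 genes read on both arrays, 363 were at least 2-fold higher and 270 lower, and nothing is read from the counts among 10 genes. Irf7, the factor that amplifies interferon production and is itself an interferon-stimulated gene, rose 2.53-fold from 125 to 338 (1.34, spot SD 0.10). Socs1, an inhibitor of JAK signalling, rose from 242 to 5376 (4.37). The median of the 10 was 0.04.

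Beside the 35 interferon-stimulated genes, with their median of 0.07, 2 other interferon-inducible lists had medians of 0.00 (11 guanylate-binding and immunity-related GTPases) and 0.08 (10 genes of MHC class I presentation). Of the GTPases 1 was at least 2-fold higher, Gbp5, at 54.0 and 165 (1.51), and 3 were not well above background. That count stands beside 363 of all 17242 genes read on both arrays, and nothing is read from it. With the scaling used here no MHC class I gene reached 2-fold, and Psmb10, an immunoproteasome subunit, came closest at 0.95. Spike-in scaling raised every gene by 0.29, enough to carry Psmb10 past 2-fold.

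The labels were checked against marker genes. Arg1, Retnla, Chil3 and Mrc1, markers of the IL-4 response, were all at least 2-fold higher on the IL-4 array. The macrophage markers Csf1r, Adgre1, Itgam, Lyz2, Fcgr1 and Mertk were well above background on both arrays, and Fcgr1 (-1.23) and Mertk (-1.14) were at least 2-fold lower after IL-4. Of the plasmacytoid dendritic cell markers, cells known as strong interferon producers, 3 of 5 were read on both arrays, with Siglech at 29067 and 31659 (0.02), Tcf4 at -0.33 and Cd209d at 0.58, while Klk1 was not well above background. The 5 neutrophil markers with a probe were all present and ran from -0.80 to -0.10. Of the lymphocyte and eosinophil markers, Cd3e (343 and 296, -0.31) and Prg2 (79.6 and 110, 0.37) were read on both arrays and Ncr1 on the untreated array alone, while Cd79a, Cd8a, Epx and Prg3 were not well above background on the 2 arrays. In RNA from a whole culture, fewer cells of a type and less RNA per cell cannot be told apart, and the part of other cells in the differences above was not tested.

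**Figure D5:**
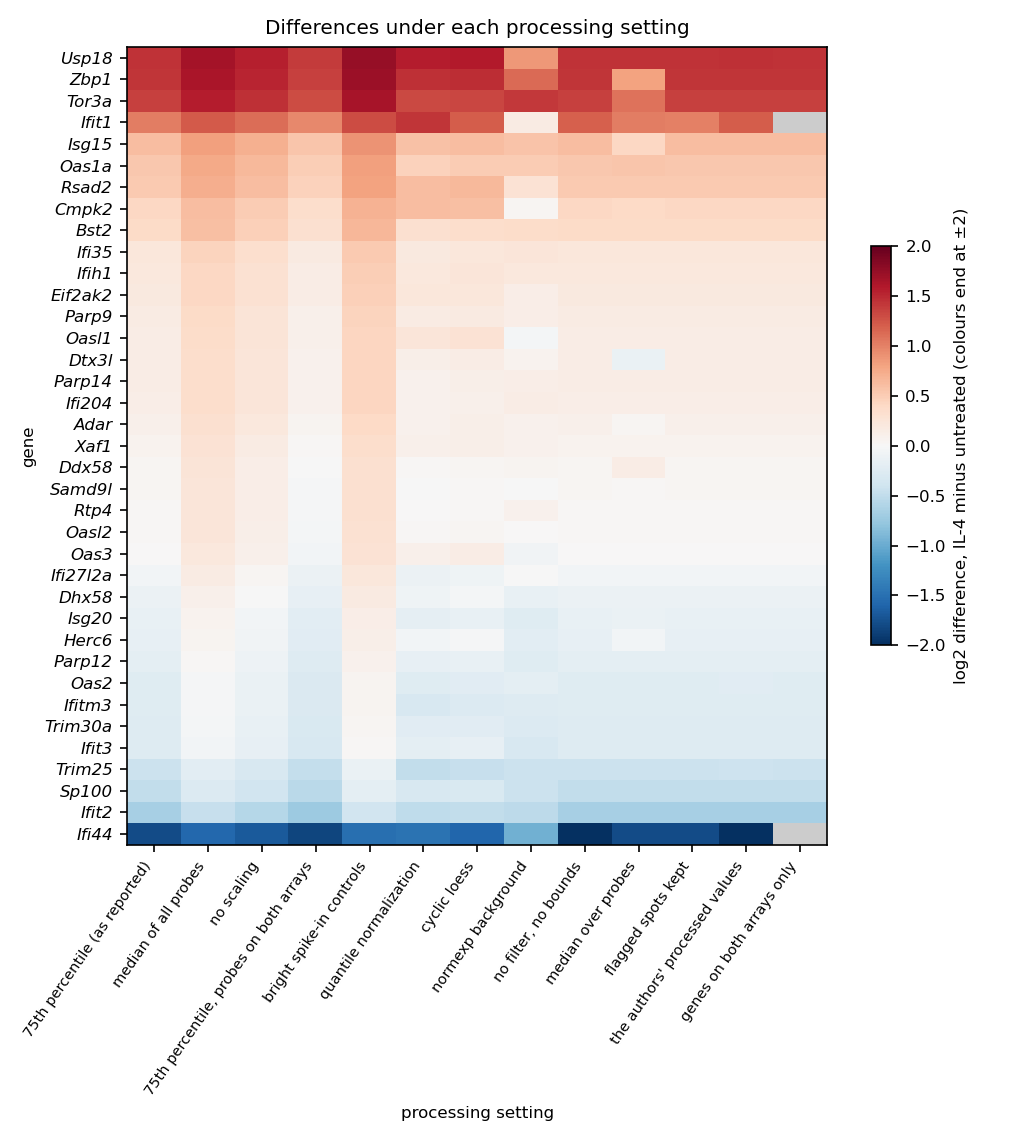
Log2 difference of each of the 37 genes under the processing as reported and 12 other settings, with red for higher and blue for lower after IL-4 and grey where a setting gives no value. Usp18, Zbp1 and Tor3a are red and Ifi44 blue in all settings that give them a value; Ifit1 fades to 0.16 under normexp, and the genes in the middle change sign with the scaling.

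The 4 genes that rose differed in how firmly they held when the processing was changed. Tor3a was at least 2-fold higher in all 13 settings, from 1.08 to 1.65. Several of these settings return nearly the same value by design, so they are not separate checks. The dimmer probe of Tor3a alone gave 0.80, under 2-fold. Usp18 ran from 0.87 to 1.74 and was under 2-fold with normexp, and Zbp1 ran from 0.80, when its probes were summarised by their median, to 1.71. The bound of Ifit1 ran from 0.16 under normexp to 1.42, and Ifi44 ran from -2.27 to -0.96, again with normexp giving the smallest size. Over all settings 21 of the 37 genes kept their sign, 17 higher and 4 lower, the 4 being Ifit2, Trim25, Sp100 and Ifi44. Scalings that shift every gene by 1 constant moved values by between -0.055 and 0.29. A higher gene thus kept its sign more easily than a lower one, and no direction of the list is read from these counts.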

How the data were processed

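Per the labels, 1 Agilent single-colour array was hybridised per condition. The authors deposited scanner output of Feature Extraction 10.10.1.1, holding a background-subtracted intensity per spot that is not scaled between arrays, and their own table of log2 values. The 2 columns of that table had medians of 0.16 and 0.016. Their difference matched the scanner's log2 difference within 0.01, after 1 offset, for 39422 of 39424 probes, so scale and direction are known, while how the columns were centred is not.

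Control and outlier-flagged spots were left out, log2 intensities were averaged over a probe's spots, and each array's 75th percentile was subtracted. Each array held 43020 spots for genes, with 59.8% well above background untreated and 57.4% after IL-4 and 0 saturated. Precision is limited by the number of arrays. Genes were named through RefSeq accessions in a GRCm38.p6 table, used for names, neighbours and promoter windows; the array was annotated on mm9. A gene well above background on 1 array got a bound, against the lowest intensity well above background on the other array or its own, whichever was higher. A 2-fold difference counted as changed. All genes of the list were to be named, and members, roles and other lists were chosen with earlier results of these data known, though the rule for members goes by name and uses no threshold on a value.

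Items of 2 of the other lists are not reported here. Alternatives were 6 other scalings, normexp with an offset of 50 on the median pixel intensity (the files hold no mean), other filters on dim probes, the median over probes, flagged spots kept, the authors' processed log2 values and a 1.5-fold limit. Counting was checked on simulated data. Python 3.11.15, numpy 2.4.6, pandas 2.3.3, matplotlib 3.10.9, R 4.3.3 and limma 3.58.1 were used.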

Additional observations from a re-analysis of the deposited data

How the results depend on the processing

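The median difference of the interferon-stimulated genes, 0.07 as reported, was 0.29 after scaling on the median of all probes, 0.17 without scaling and 0.36 after scaling on spike-in controls, settings that move the median of all genes from -0.01 to 0.20, 0.08 and 0.27. The gap between both medians was 0.087 under those scalings, which move every gene by the same amount and so cannot change it. It was between 0.060 and 0.11 under the other alternatives. The count of 4 genes at least 2-fold higher became 2 under normexp and was 3 to 5 in the other alternatives. The count of 1 gene at least 2-fold lower became 0 under normexp, 0 when only genes well above background on both arrays were kept, and 2 at 1.5-fold. Among all genes, 564 higher and 883 lower as reported became 827 and 564 with median scaling, 675 and 709 without scaling, 954 and 495 with spike-in controls, 803 and 533 with quantile normalization, 693 and 632 with cyclic loess, 295 and 266 with normexp, 363 and 270 among genes well above background on both arrays, 1389 and 4075 with no filter, 848 and 1645 with the authors' processed values, and 1206 and 2164 at 1.5-fold. The causes were not tested. Of 442 values of single genes under an alternative, 297 moved by less than the spot SD. Many of the 442 had little or no room to move. Other filters on dim probes left every gene read on both arrays at its reported value. For those genes, keeping outlier spots or taking the authors' log2 values gave nearly the same differences. A median over probes cannot move a gene with 1 probe. The count of 297 is therefore no measure of how firmly the values held. No gene at least 2-fold changed reversed its sign. Across the 6 other scalings 14 of the 37 genes changed sign, with reported differences of -0.26 to 0.04. No paired analysis was possible because there is only 1 array for each condition. With 1 array per condition the spread between cultures is unknown, and the 5 genes read on both arrays with a mean log2 intensity below 7, and both bounds, are limited by signal near background. Usp18, Rsad2 and Oasl1 lay above 7 by their mean, but their untreated log2 intensities were 6.41, 6.78 and 6.95, so their untreated signal was dim as well.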
